A study of Mus musculus with 10 samples.

Results

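The genes described here are the antisense and opposite-strand transcripts of the mouse forelimb-bud ectoderm, each set beside the sense gene whose symbol it carries. The members were chosen by symbol and by level in these same libraries: a gene was taken when its symbol ended in os or as, with or without a number, and the rest of the symbol was itself a gene of the count table. Its mean counts-per-million value (CPM) also had to reach 0.5 over the libraries of at least 1 genotype. Of 311 symbols of that form, 198 had a count in some library and 71 reached the limit, out of 55401 genes in the table. The 71 comprised 53 over the limit in both genotypes, 13 over it in the double knockouts alone and 5 in the wild types alone. For those last 13 and 5 genes the direction of the difference follows from the limit itself. Just inside the limit were Rsf1os2, Arhgap27os1 and Dnm3os, at 0.506, 0.514 and 0.536 CPM in the higher genotype. Just outside it were Tbx3os1, Ttc39aos1 and Tomm6os, at 0.435, 0.433 and 0.429 CPM.

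The libraries came from the ectoderm of forelimb buds, the epithelium that covers the limb mesenchyme and forms the apical ectodermal ridge at its distal rim. At E9.75 (days of embryonic development), 3 libraries were labelled as the Sp8 and Sp6 double knockout (DKO) and 3 came from wild-type (WT) embryos labelled as littermates of the DKO line. Sp8 and Sp6 are zinc finger transcription factors of the ectoderm that are needed for the ridge; the labels name no allele and no Cre driver, and each replicate took the ectoderm of about 2 buds. The libraries are named by genotype and column number, WT 32, WT 53 and WT 56 and DKO 17, DKO 40 and DKO 41, and the 4 libraries of E10.5 (Sp6 knockout and WT) were not analysed here.

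Antisense genes are transcribed from the strand opposite to a neighbouring gene. Many start at a promoter shared with that gene and run away from it, while others run through its exons or lie inside its introns. Several at developmental loci, among them Dlx6os1 (also called Evf2) and Emx2os, are known to be expressed in the same tissues as their sense gene, and some have been shown to act on it. The full-length chemistry used here does not keep the strand, so a read on an exon that both genes share cannot be assigned to either strand.

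The promoter windows of 3 members are shown, 2 whose levels were separated by genotype unlike those of their sense gene (Dlx6os1 and Abhd11os) and 1 separated together with it (Irx3os). Each runs from 250 bases before to 50 bases after a RefSeq start, in the member's own direction, from RefSeq on GRCm38.p6, and RefSeq held such a window for 45 of 69 members with a sense partner. The Dlx6os1 window is chr6:6869484-6869783 on the minus strand, the Abhd11os window chr5:135013108-135013407 on the minus strand and the Irx3os window chr8:91803086-91803385 on the plus strand. Capitals mark the 2 motifs searched on both strands, the GC box GGGCGG bound by Sp proteins and the homeodomain core TAATTA.
Dlx6os1: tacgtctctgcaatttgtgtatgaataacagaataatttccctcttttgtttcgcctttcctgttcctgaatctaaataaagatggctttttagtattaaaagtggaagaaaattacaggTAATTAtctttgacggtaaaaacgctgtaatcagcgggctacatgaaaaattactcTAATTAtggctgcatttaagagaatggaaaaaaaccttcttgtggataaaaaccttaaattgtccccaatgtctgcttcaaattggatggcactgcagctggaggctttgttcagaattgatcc
Abhd11os: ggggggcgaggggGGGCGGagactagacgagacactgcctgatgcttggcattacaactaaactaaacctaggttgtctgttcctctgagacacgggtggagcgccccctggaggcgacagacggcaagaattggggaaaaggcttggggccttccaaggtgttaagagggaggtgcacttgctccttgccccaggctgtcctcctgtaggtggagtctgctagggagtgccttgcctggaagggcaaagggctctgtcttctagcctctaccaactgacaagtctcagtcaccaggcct
Irx3os: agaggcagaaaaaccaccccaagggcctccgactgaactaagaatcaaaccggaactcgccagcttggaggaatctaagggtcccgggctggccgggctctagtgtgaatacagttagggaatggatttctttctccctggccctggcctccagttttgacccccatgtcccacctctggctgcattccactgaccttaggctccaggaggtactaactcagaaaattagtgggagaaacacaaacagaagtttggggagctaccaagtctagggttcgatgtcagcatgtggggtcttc
The Dlx6os1 window held TAATTA at 130 and at 74 bases before the RefSeq start and no GC box, and 35.7% of its bases were G or C. RefSeq has 2 entries for this gene, and the annotated start of the longest form lies further upstream, at position 6871592. In the Abhd11os window there was 1 GC box, 237 bases before the start, and in the Irx3os window neither motif, with 58.3% and 53.0% of G and C. For Irx3os, too, the annotated start lies further upstream and outside the window, at position 91800415 against a RefSeq start at 91803336. Over all 27025 genes with a window, 38.2% held the GC box and 6.12% held TAATTA. Of the 45 members with a window 22 (48.9%) held the GC box and 2 (4.44%) held TAATTA, and of 51 sense partners with a window 31 (60.8%) and 3 (5.88%) did. These matches describe letters in a window and not binding.

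Another member, Dnm3os, is the host transcript of 2 microRNA hairpins, miR-199a-2 and miR-214, which lie inside it on chromosome 1. Their mature forms are printed from RefSeq, 5′ to 3′, with the seed (bases 2 to 8) in capitals. Libraries of this kind measure the host transcript and not the mature microRNAs.
mmu-miR-199a-5p: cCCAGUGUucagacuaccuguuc
mmu-miR-199a-3p: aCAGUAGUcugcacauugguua
mmu-miR-214-5p: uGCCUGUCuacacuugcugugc
mmu-miR-214-3p: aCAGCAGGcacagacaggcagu
No 2 of the 4 share a seed.

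The libraries held 64432348 to 87040786 counts each. Sp8 was measured at 34.1, 43.2 and 31.3 CPM in WT 32, WT 53 and WT 56 and at 5.86, 2.38 and 2.80 CPM in DKO 17, DKO 40 and DKO 41 (log2 fold change -3.29, edgeR adjusted p = 0.000806). Sp6 was measured at 228, 312 and 320 CPM in WT 32, WT 53 and WT 56 and at 133, 13.9 and 76.9 CPM in DKO 17, DKO 40 and DKO 41 (log2 fold change -1.94, edgeR adjusted p = 0.207). Every DKO library was below every WT library for both genes, and DKO 17 was the highest of the 3 DKO libraries for both. The 10 ectoderm markers together reached 3725 to 4126 CPM in WT and 2623 to 3452 in DKO, with Epcam and Cdh1 called lower and Krt8 higher, and the 9 ridge markers 1800 to 2183 and 241 to 400 CPM, with 6 called lower. The 10 mesenchyme markers summed to 242 to 366 CPM in WT and 331 to 486 in DKO, with Meis1 called higher and Pdgfra lower. Meis1 was on average the largest part of that sum, at 140 CPM in WT and 217 in DKO. Other markers of the list varied far more between libraries of a genotype than the sum did. Prrx1 was at 29.0, 1.61 and 0.412 CPM in WT 32, WT 53 and WT 56 and at 3.50, 23.3 and 12.8 CPM in DKO 17, DKO 40 and DKO 41. The 6 blood markers ranged from 0 to 256 CPM in WT and from 21.1 to 732 in DKO. The 5 endothelial markers stayed at or below 0.852 CPM, with Cdh5 at 0 in all libraries. The 5 neural markers ranged from 74.1 to 118 CPM in WT and from 7.20 to 14.1 in DKO, with Sox2 and Tubb3 called lower and Neurog1 at 0 in all. Tubb3 made up most of that sum, at 91.3 CPM on average in WT and 2.22 in DKO. Sox10, a neural crest gene of the same list, was higher on average in DKO, at 1.44, 4.26 and 0.767 CPM in WT 32, WT 53 and WT 56 and 10.9, 12.5 and 3.20 CPM in DKO 17, DKO 40 and DKO 41 (log2 fold change 2.15, edgeR adjusted p = 0.103). What part these other cells have in the differences below was not tested, and in bulk RNA fewer cells of a type and less RNA per cell cannot be told apart.

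In the GENCODE annotation of GRCm38, 69 of the 71 lay beside their sense gene on the opposite strand. The other 2, Hras and Vipas39, are protein-coding genes on other chromosomes than Hr and Vip and are no antisense genes; they match the naming rule by spelling alone. Of the 69, 63 were noncoding and 6 coded for proteins of their own (Wdr83os, Slc7a6os, Cebpzos, Znrd1as, Ccpg1os and Brd3os). They had 67 distinct sense genes, since Tmem147 and Arhgap27 each had 2 partners. Divergent pairs were most common, with 42, of which 27 had start sites within 1000 bases of each other. In 13 pairs the genes converged, in 10 the antisense gene lay inside the sense gene and in 4 the sense gene lay inside the antisense gene. Exon bases were shared with the sense gene in 42 pairs and in 27 none were; the median share of the antisense exons was 4.04%. At least 50% of the exon bases were shared with some gene in 7 members.

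Most of the noncoding members were low. Their median level over the 6 libraries was 1.16 CPM, with 14 at 5 CPM or more, 20 from 1 to 5 and 29 below 1. The highest was Oip5os1, a long intergenic transcript also known as Cyrano, at 64.1, 60.4 and 60.1 CPM in WT 32, WT 53 and WT 56 and 55.7, 57.6 and 61.5 CPM in DKO 17, DKO 40 and DKO 41. It overlapped between genotypes, with a log2 fold change of -0.08 (edgeR adjusted p = 0.796). Per kilobase of exon the antisense gene was usually the lower of the pair: over 62 noncoding pairs with a sense count, its median was 19.9% of the sense level in WT and 24.0% in DKO, and 25 pairs were under 10% in WT. In 12 pairs it was the higher in WT. Brip1os reached 444% of Brip1, a DNA helicase gene, Lrp8os2 442% of Lrp8, a lipoprotein receptor gene, and Dlx4os 237% of Dlx4, a homeobox gene. Hoxb3os reached 344% of Hoxb3, but most of its exon bases lie on exons of Hoxb3 and Hoxb2, where reads cannot be assigned to either strand. Rab26os reached 1430% of Rab26, a gene measured at 0.359 CPM in WT. At the other end, H3f3aos had 0.0776% of the per-kilobase level of H3f3a, a histone gene, and Gnasas1 0.492% of Gnas, an imprinted locus for a G protein subunit.

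**Figure D1:**
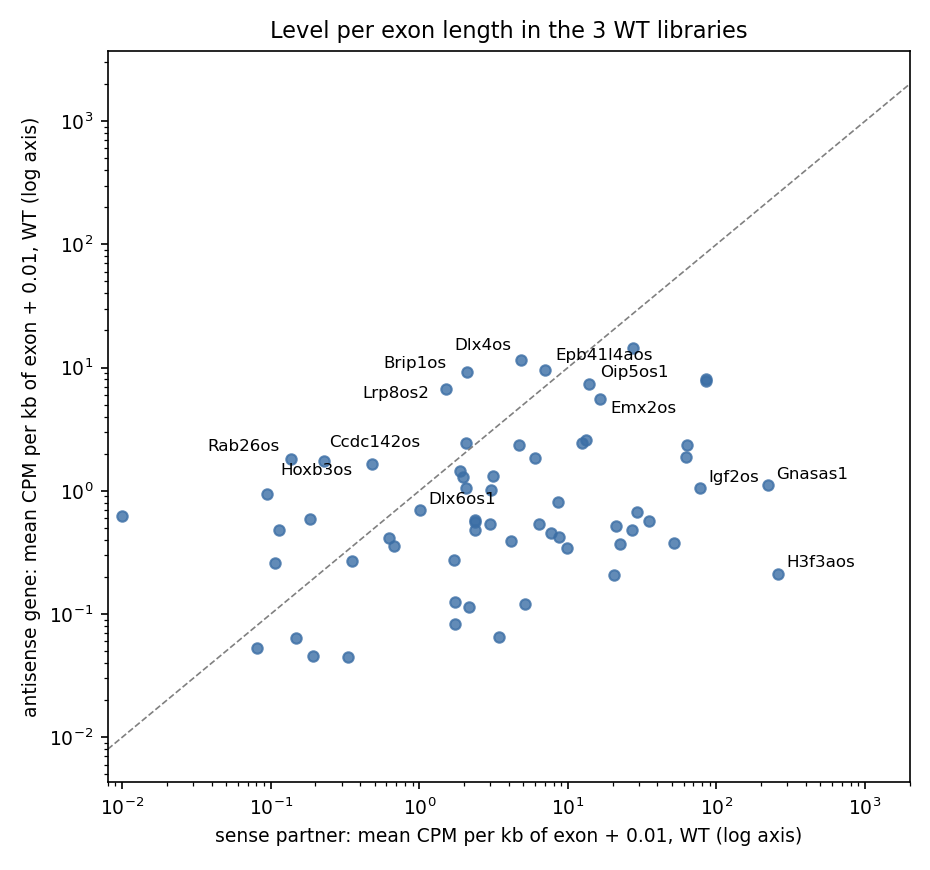
Mean level per kilobase of exon in the 3 WT libraries, antisense gene (vertical) against sense gene (horizontal), both log axes in CPM per kb with 0.01 added; each point is 1 of 63 noncoding pairs and the dashed line marks equal levels. Most points lie below the line, and Brip1os, Lrp8os2, Dlx4os, Hoxb3os and Rab26os lie above it; the point at the left edge is Erich2os, whose sense gene had no count in WT.

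Few members were called, and the shares that differed between genotypes were near those over all genes. All 71 passed the filter on low counts, and 2 (2.82%) were called at an edgeR adjusted p under 0.05, Emx2os lower and Hoxb5os higher, where 4.51% of the 19126 genes tested were called (1.70% higher and 2.81% lower). At an unadjusted p under 0.05 there were 14 members (19.7%), 7 in each direction, against 18.0% of all genes. Of the 53 members over the 0.5 CPM limit in both genotypes, 9 (17.0%) were under that p. In 12 of those 53 (22.6%) the libraries of the genotypes did not overlap, against 21.9% of all genes. Every DKO library was above every WT library in 7 of the 53, against 10.6% of all genes, and below in 5 of the 53, against 11.3%. Among the 53 the log2 fold changes had a median of 0.13, against 0.03 over all genes tested, with 34 above 0 and 19 below. Over all genes tested 10159 were above 0 and 8967 below. Another 7 members did not overlap either, but 5 of them (Egfros, Irx3os, Hoxd3os1, Etaa1os and Has2os) were over the limit in DKO alone and 2 (Mccc1os and Hk1os) in WT alone, so the limit fixed the direction of these 7. Of the 27 members that share no exon base with their sense gene none was called by edgeR. At an unadjusted p under 0.05 there were 2 of these 27 (7.41%), against 18.0% of all genes. The libraries of 5 of the 27 (18.5%) did not overlap between genotypes, against 21.9% of all genes. DESeq2 called 4 of the 70 members to which it gave an adjusted p, Emx2os, Hoxb5os, Abhd11os and Irx3os, and 1738 of 20940 genes. DKO 40 and WT 32 were in each genotype the library with the highest sum of mesenchyme markers. Without them edgeR called 0 of 70 members and 74 of 19246 genes. At an unadjusted p under 0.05 there were then 9 members and 1938 genes. With 1 library left out the count of members called ranged from 0 (without DKO 40, WT 32 or WT 56) through 1 (without WT 53) to 3 (without DKO 17 or DKO 41). Over all genes it then ranged from 247 (without WT 56) to 918 (without DKO 41).

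**Figure D2:**
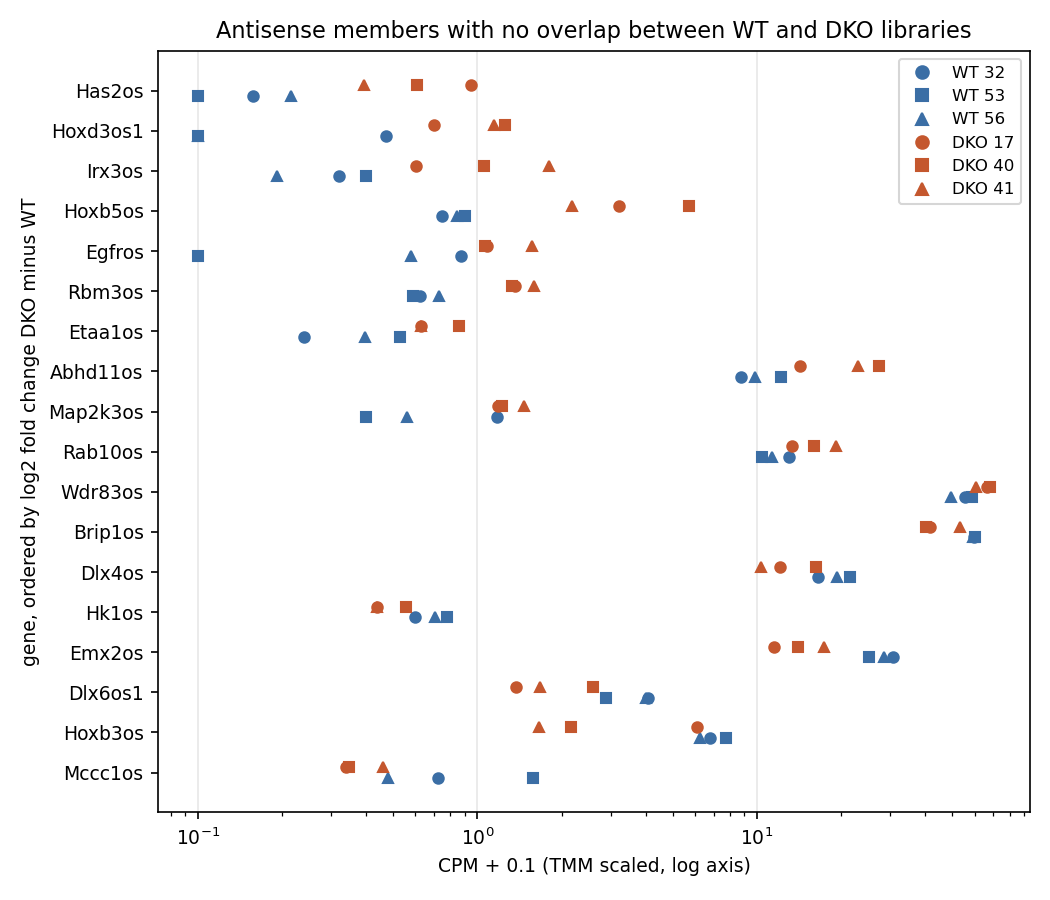
CPM plus 0.1 on a log axis in each library for the 18 members beside a sense gene whose WT (blue) and DKO (orange) libraries did not overlap, ordered by log2 fold change; marker shapes tell the 3 libraries of a genotype apart. Hoxb5os and Irx3os are separated widely toward DKO and Emx2os toward WT, while genes such as Map2k3os, Dlx4os and Rab10os are separated by little more than the width of a point.

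Emx2os fell in the double knockouts. It runs divergently from Emx2, a homeobox gene, at 59425104 to 59458635 on chromosome 19 (minus strand, GRCm38), and its start lies 263 bases inside Emx2. The level was 30.6, 25.0 and 28.3 CPM in WT 32, WT 53 and WT 56 and 11.4, 13.9 and 17.2 CPM in DKO 17, DKO 40 and DKO 41. Every DKO library was below every WT library, a log2 fold change of -0.98 with SE 0.195 (edgeR adjusted p = 0.0253). Emx2 itself was at 47.3, 44.3 and 56.0 CPM in WT and 37.3, 28.6 and 35.2 CPM in DKO. Its libraries did not overlap either, with a log2 fold change of -0.55 that did not pass the test (edgeR adjusted p = 0.0960). The 2 genes share 264 of the 5023 exon bases of Emx2os. In CPM, Emx2os made up 64.7%, 56.5% and 50.5% of the Emx2 level in WT 32, WT 53 and WT 56 and 30.6%, 48.5% and 48.9% in DKO 17, DKO 40 and DKO 41. The call on Emx2os was lost without DKO 17, DKO 40, WT 32 or WT 56, with edgeR adjusted p from 0.0184 to 0.116 and log2 fold changes from -1.16 to -0.85 over the 6 omissions.

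Members at the HOX clusters, whose genes set position along the body and limb axes, went in more than 1 direction. Hoxb5os, at 96291024 to 96306910 on chromosome 11 (minus strand), contains Hoxb5 and was at 0.648, 0.805 and 0.744 CPM in WT 32, WT 53 and WT 56. In DKO 17, DKO 40 and DKO 41 it was at 3.12, 5.63 and 2.07 CPM, all above WT, and rose by 2.28 on the log2 scale (SE 0.518, edgeR adjusted p = 0.0424). Hoxb5 rose with it, from 4.34, 6.55 and 6.22 CPM to 15.6, 14.5 and 11.7 CPM (log2 fold change 1.30, edgeR adjusted p = 0.0196). Shared exons cover 100 of the 696 exon bases of Hoxb5os. Per kilobase, Hoxb5os was at 51.4% of Hoxb5 in WT and 104% in DKO. Of the 6 omissions of 1 library only that of DKO 41 kept the call on Hoxb5os (edgeR adjusted p from 0.0221 to 0.183), and those of DKO 17, DKO 41 and WT 53 kept the call on Hoxb5.

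Hoxb3os lies further along the same cluster, at 96343072 to 96354691 on chromosome 11, and converges on Hoxb3. It was at 6.68, 7.66 and 6.17 CPM in WT 32, WT 53 and WT 56 and at 5.99, 2.06 and 1.56 CPM in DKO 17, DKO 40 and DKO 41. DKO 17 was almost at the WT level and the other two DKO libraries were far below it. The log2 fold change of -1.08 did not pass the test (edgeR adjusted p = 0.226); without DKO 17 it was -1.92 (edgeR adjusted p = 0.0203). Hoxb3 moved the other way and was called higher: from 1.89, 2.37 and 1.78 CPM in WT to 3.72, 7.18 and 5.93 CPM in DKO (log2 fold change 1.49, edgeR adjusted p = 0.0458), a call kept only without DKO 17 among the 6 omissions. In WT the antisense gene had 354%, 323% and 346% of the CPM of Hoxb3, and in DKO 161%, 28.7% and 26.3%. The antisense exons overlap those of Hoxb3 by 2250 bases and those of Hoxb2 by 953, so 76.2% of them lie on other genes, and Hoxb2 had a log2 fold change of 0.22 (edgeR adjusted p = 0.613).

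At the Hoxd cluster, Hoxd3os1 was at 0.370, 0 and 0 CPM in WT 32, WT 53 and WT 56 and at 0.600, 1.15 and 1.04 CPM in DKO 17, DKO 40 and DKO 41. The libraries did not overlap, and the test was not passed (edgeR adjusted p = 0.118). Hoxd3 was called higher, at 0, 0.884 and 0 CPM in WT and 4.75, 4.14 and 1.49 CPM in DKO (edgeR adjusted p = 0.0455), and kept that call in 2 of 6 omissions of a library, those of DKO 41 and WT 53. Hoxd3os1 shares 347 of its 2872 exon bases with Hoxd3, and the same 347 lie on exons of Hoxd4 too. Hoxd4 was called higher as well (edgeR adjusted p = 0.0286). In these libraries a count of 0 allows a level of up to 0.0345 to 0.0466 CPM (3 counts), for counting error alone.

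**Figure D3:**
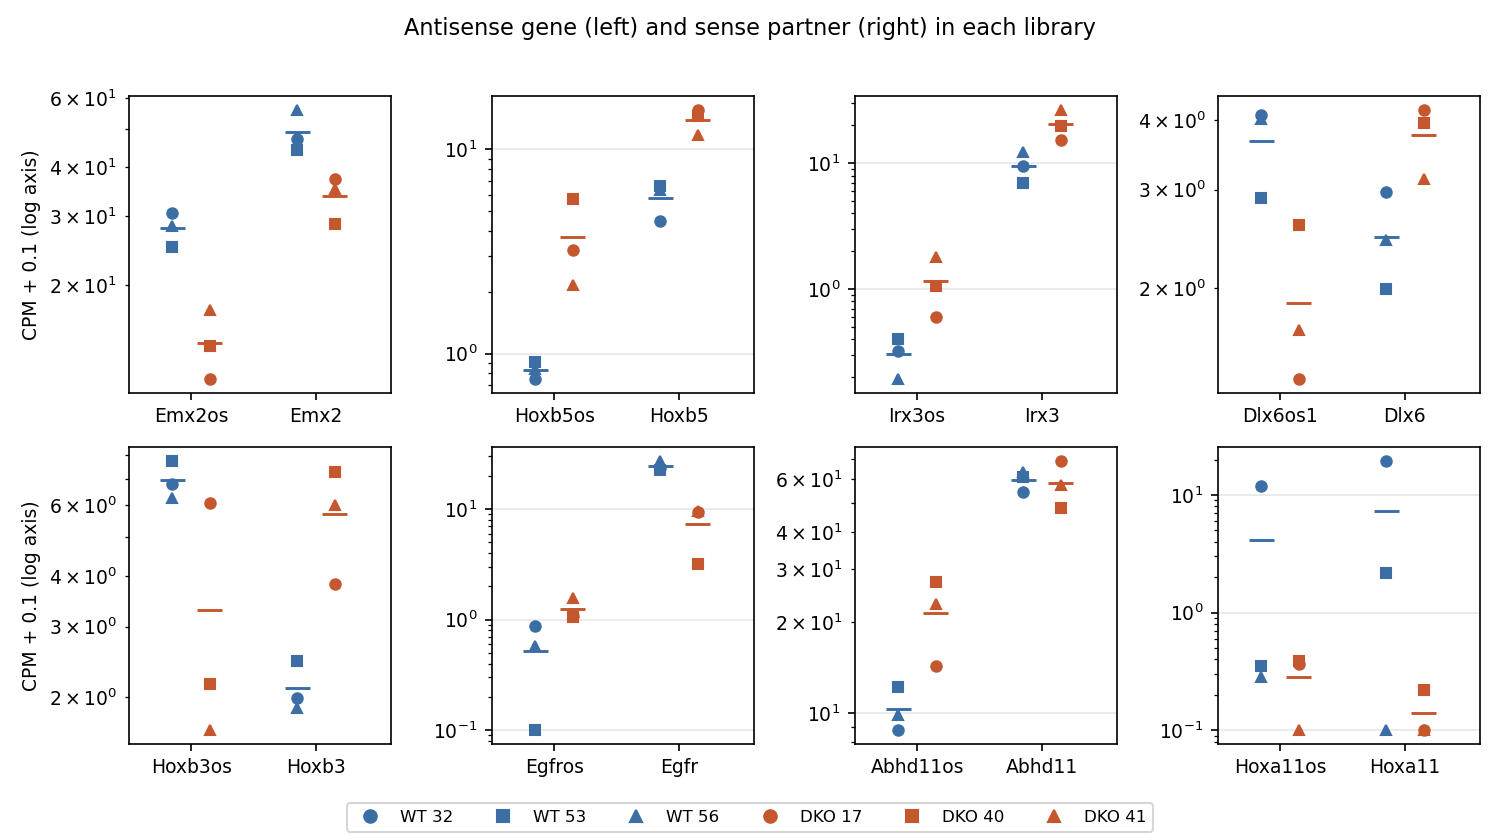
CPM plus 0.1 on log axes in each library for 8 antisense genes (left in each panel) and their sense genes (right), WT in blue and DKO in orange, with a bar at the mean of the 3 libraries. Emx2os and Emx2, Hoxb5os and Hoxb5, and Irx3os and Irx3 are displaced in the same direction, Dlx6os1, Hoxb3os and Egfros opposite to their sense genes, Abhd11os without Abhd11, and Hoxa11os and Hoxa11 are high in WT 32.

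Dlx6os1 was lower in every DKO library while Dlx6, a homeobox gene of the ridge, was higher in every one. The antisense gene spans 6820189 to 6871592 on chromosome 6 (minus strand) and contains Dlx6, but shares no exon base with it. It was at 3.98, 2.79 and 3.91 CPM in WT 32, WT 53 and WT 56 and at 1.27, 2.49 and 1.58 CPM in DKO 17, DKO 40 and DKO 41. Its log2 fold change of -1.04 did not pass the test (edgeR adjusted p = 0.144). For Dlx6 the levels were 2.87, 1.89 and 2.33 CPM in WT and 4.07, 3.85 and 3.04 CPM in DKO, a log2 fold change of 0.60 (edgeR adjusted p = 0.344). The CPM of Dlx6os1 was 139%, 148% and 168% of that of Dlx6 in WT and 31.3%, 64.7% and 52.0% in DKO, so the groups did not overlap in the ratio. The difference of the mean log2 ratios was -1.61; an exact two-sided permutation test over 3 against 3 libraries cannot go below 0.1, so the ratios are given here as descriptions. Dlx5, the neighbouring homeobox gene, had a log2 fold change of 0.13 (edgeR adjusted p = 0.859). At the second Dlx locus, Dlx4os was at 16.4, 21.4 and 19.2 CPM in WT and between 10.2 (DKO 41) and 16.2 CPM (DKO 40) in DKO (log2 fold change -0.57, edgeR adjusted p = 0.206). Dlx4 overlapped between genotypes, with a log2 fold change of -0.42 (edgeR adjusted p = 0.437), and the antisense to sense ratio overlapped too.

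Irx3os and Has2os were higher in every DKO library together with their sense genes, and neither passed the test. Irx3 codes for an Iroquois homeodomain protein and Has2 for a hyaluronan synthase. Irx3os was at 0.220, 0.300 and 0.0915 CPM in WT 32, WT 53 and WT 56 and at 0.504, 0.954 and 1.70 CPM in DKO 17, DKO 40 and DKO 41 (log2 fold change 2.45, edgeR adjusted p = 0.0719). Irx3 was at 9.36, 6.93 and 12.2 CPM in WT and 15.2, 19.8 and 26.6 CPM in DKO (log2 fold change 1.10, edgeR adjusted p = 0.0604). In both genes DKO 41 was the highest library and DKO 17 the lowest of its group, and both were called without DKO 17 (the edgeR adjusted p of Irx3os was then 0.0396 and that of Irx3 0.0409). Has2os was at 0.0579, 0 and 0.114 CPM in WT and at 0.852, 0.509 and 0.291 CPM in DKO (log2 fold change 3.08, edgeR adjusted p = 0.0585; 0.0404 without DKO 41). Has2 was at 2.30, 0 and 0 CPM in WT and 4.78, 14.9 and 5.77 CPM in DKO (edgeR adjusted p = 0.0651). The order of the DKO libraries differed between these 2 genes: DKO 17 was highest for Has2os and DKO 40 for Has2. The sum of the mesenchyme markers was also highest in DKO 40, with Prrx1 at 23.3 CPM. Of that list Meis1 was lowest in DKO 40 among the DKO libraries, at 191 CPM against 208 in DKO 17 and 252 in DKO 41. Pdgfra was at 10.1 CPM in DKO 40 and 10.3 in DKO 41, and the other markers were highest in DKO 40 among the DKO libraries. The part of such cells was not tested.

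Egfr, the epidermal growth factor receptor gene, and Ccpg1, a gene of endoplasmic reticulum turnover, fell, and their antisense genes were higher on average without passing the test. Egfros lies inside Egfr on chromosome 11, at 16815431 to 16830702, and its exons share no base with those of any gene. It was at 0.775, 0 and 0.481 CPM in WT 32, WT 53 and WT 56 and at 0.984, 0.967 and 1.47 CPM in DKO 17, DKO 40 and DKO 41, with no overlap (log2 fold change 1.33, edgeR adjusted p = 0.307). Egfr was at 23.6, 22.7 and 27.3 CPM in WT and 9.29, 3.10 and 9.51 CPM in DKO, and fell by 1.73 on the log2 scale (SE 0.323, edgeR adjusted p = 0.0201). Its call was kept without any 1 of the DKO libraries and lost without any 1 of the WT libraries. Egfros thus had 3.29%, 0% and 1.76% of the CPM of Egfr in WT and 10.6%, 31.2% and 15.4% in DKO. Ccpg1os, which is annotated as coding for a protein and starts 47 bases from Ccpg1, was at 4.78, 7.83 and 4.86 CPM in WT and 6.18, 8.76 and 8.49 CPM in DKO. These values overlapped (log2 fold change 0.46, edgeR adjusted p = 0.449). Ccpg1 was at 24.1, 27.6 and 27.6 CPM in WT and 16.3, 12.2 and 16.6 CPM in DKO (log2 fold change -0.81, edgeR adjusted p = 0.0399), a call lost in each of the 6 omissions of a library. The CPM of Ccpg1os was 19.9%, 28.3% and 17.6% of that of Ccpg1 in WT and 38.0%, 72.1% and 51.1% in DKO, which did not overlap.

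Abhd11os and Rbm3os were higher in every DKO library beside sense genes whose libraries overlapped. Abhd11 codes for a mitochondrial hydrolase and Rbm3 for a cold-inducible RNA-binding protein. Abhd11os, annotated as a transcribed pseudogene at 135012114 to 135013253 on chromosome 5, was at 8.66, 12.1 and 9.77 CPM in WT 32, WT 53 and WT 56 and at 14.2, 27.1 and 22.9 CPM in DKO 17, DKO 40 and DKO 41. DKO 17 was the closest to WT, with a log2 fold change of 1.08 and SE 0.269 (edgeR adjusted p = 0.0584, and 0.0177 without DKO 17). Abhd11, which shares 62 bases with the end of Abhd11os, was at 54.3, 60.9 and 63.0 CPM in WT and 68.9, 47.8 and 57.3 CPM in DKO (log2 fold change -0.03, edgeR adjusted p = 0.945). Rbm3os was at 0.521, 0.489 and 0.629 CPM in WT and at 1.26, 1.23 and 1.49 CPM in DKO, with narrow groups far apart (log2 fold change 1.27, edgeR adjusted p = 0.125). Rbm3 was at 145 to 199 CPM in WT and 153 to 204 CPM in DKO (log2 fold change 0.11, edgeR adjusted p = 0.790).

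The other members with no overlap between genotypes differed by less, or at lower levels, and none passed the test. Brip1os was at 59.5, 60.2 and 59.1 CPM in WT 32, WT 53 and WT 56 and at 41.6, 40.3 and 53.3 CPM in DKO 17, DKO 40 and DKO 41 (log2 fold change -0.40, edgeR adjusted p = 0.175). Rab10os was at 13.0, 10.3 and 11.2 CPM in WT and 13.3, 15.9 and 19.1 CPM in DKO (log2 fold change 0.48, edgeR adjusted p = 0.265). Its sense gene Rab10, a vesicle transport GTPase, was lower in every DKO library (-0.26, edgeR adjusted p = 0.234). Etaa1os stood at 1.12 on the log2 scale beside Etaa1, a replication stress gene, at -0.36, again with both separated in opposite directions. Wdr83os and Wdr83 were both higher in every DKO library, by 0.26 and 0.30 on the log2 scale, and share 539 exon bases. The rest were Map2k3os at 0.90, Hk1os at -0.65 and Mccc1os at -1.43, with the coding gene Vipas39 at 0.22.

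Some members rest on 1 or 2 libraries. Hoxa11os, at 52244393 to 52249799 on chromosome 6, is the antisense transcript of Hoxa11, a gene of the limb mesenchyme. It was at 11.7 CPM in WT 32 but at 0.253 and 0.183 CPM in WT 53 and WT 56, and at 0.264, 0.287 and 0 CPM in DKO 17, DKO 40 and DKO 41. The log2 fold change of -4.59 (edgeR adjusted p = 0.210) was -0.29 without WT 32. Hoxa11 was at 19.5, 2.08 and 0 CPM in WT and 0, 0.118 and 0 CPM in DKO, and Hoxa10 at 31.9 CPM in WT 32 against 1.31 and 0.606 CPM in the other WT libraries. WT 32 also had the most of the mesenchyme gene Prrx1, 29.0 CPM against 1.61 and 0.412 CPM in WT 53 and WT 56. Of the mesenchyme list, Pdgfra was highest in WT 56 among the WT libraries, at 94.5 CPM against 67.8 in WT 32. Col1a1 was highest in WT 53, at 12.8 CPM against 9.57 in WT 32. The other markers of the list were highest in WT 32, Meis1 by little (145 CPM against 143 in WT 53 and 133 in WT 56). DKO 40, with Prrx1 at 23.3 CPM, had Hoxa10 at 0.366 CPM. Dnm3os, the microRNA host, was at 1.15, 0.0631 and 0.0801 CPM in WT and at 0.156, 0.718 and 0.706 CPM in DKO. Hand2os1, which overlaps the limb patterning gene Hand2, was at 1.26, 0 and 0.0915 CPM in WT and at 0.144, 1.50 and 0.280 CPM in DKO. Both were highest in WT 32 among the WT libraries and in DKO 40 among the DKO libraries, as was Prrx1. Dnm3os was almost as high in DKO 41 as in DKO 40, and Prrx1 was at 12.8 CPM in DKO 41. The part of mesenchyme cells in the values of Hoxa11os, Dnm3os and Hand2os1 was not tested. Evx1os, beside a homeobox gene, was at 0.868, 0 and 1.48 CPM in WT and at 0, 0.248 and 0 CPM in DKO, so the genotypes overlapped at 0 (edgeR adjusted p = 0.151).

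Members at other limb and signalling loci overlapped between genotypes, and none passed the test. Sp3os, antisense to a ubiquitous Sp family gene, was at 2.52, 2.08 and 2.33 CPM in WT and 1.79, 2.74 and 2.59 CPM in DKO (log2 fold change 0.02, edgeR adjusted p = 0.981). Tbx3os2 had 0.50 beside the limb gene Tbx3 at -0.04. Lef1os1 had 0.06 beside the Wnt effector Lef1 at 0.17, Notumos 0.44 beside the Wnt inhibitor Notum at -0.10, and Fzd10os 0.06 beside the Wnt receptor Fzd10 at -0.27. At imprinted loci Igf2os had -0.07 beside Igf2 at -0.27 and Gnasas1 -0.18 beside Gnas at -0.36, and both sense genes were lower in every DKO library. The exons of Igf2os overlap those of Gm49394 by 1142 bases, a gene at 0.600 to 19.2 CPM in WT and 64.1 to 110 CPM in DKO that did not pass the test (edgeR adjusted p = 0.0785), and those reads cannot be told apart. Among the coding members Slc7a6os had -0.10, Cebpzos 0.26, Znrd1as 0.17 and Brd3os 0.52 on the log2 scale. The 2 genes that carry the symbol Tmem147os had -0.21 and 0.21, and Hras, matched by name alone, had -0.12. With 1 library left out, the sign of the difference turned in at least 1 of the 6 omissions for Sp3os, Lef1os1, Fzd10os, Igf2os, Slc7a6os and Znrd1as and for the sense genes Tbx3, Lef1 and Notum.

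Of the 67 sense genes, 64 passed the filter on low counts and 5 (7.81%) were called by edgeR, where 4.51% of all genes tested were: Hoxb3, Hoxb5 and Hoxd3 higher and Ccpg1 and Egfr lower. The libraries of 20 sense genes (31.2%) did not overlap between genotypes, against 21.9% of all genes. Their median log2 fold change was -0.03. Over the 66 pairs tested on both sides, antisense and sense had the same sign in 32. The log2 fold changes correlated across pairs with a Pearson r of 0.63 and a Spearman rho of 0.07, and without Hoxa11os, Evx1os, Has2os and Hoxd3os1, which were chosen for their large values after they were seen, with -0.08 and -0.12 over 62 pairs. Pairs that share exon bases had the same sign in 24 of 39 (r = 0.79, rho = 0.34) and pairs that share none in 8 of 27 (r = -0.52, rho = -0.40). These are descriptions across genes, which are not independent replicates: all pairs share the same 6 libraries, and reads on shared exons can enter both members of a pair. In 11 pairs the libraries of both genes were separated by genotype. Both were higher in DKO in 5 (Hoxb5os, Hoxd3os1, Irx3os, Has2os and Wdr83os) and both lower in 1 (Emx2os), all of which share exon bases with their sense gene. They went opposite ways in 5, of which Dlx6os1, Egfros and Etaa1os share no exon base and Hoxb3os and Rab10os do. For Hoxd3os1, Irx3os, Has2os, Egfros and Etaa1os the limit fixed the direction of the antisense gene. The share of other gene pairs separated on both sides was not computed.

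**Figure D4:**
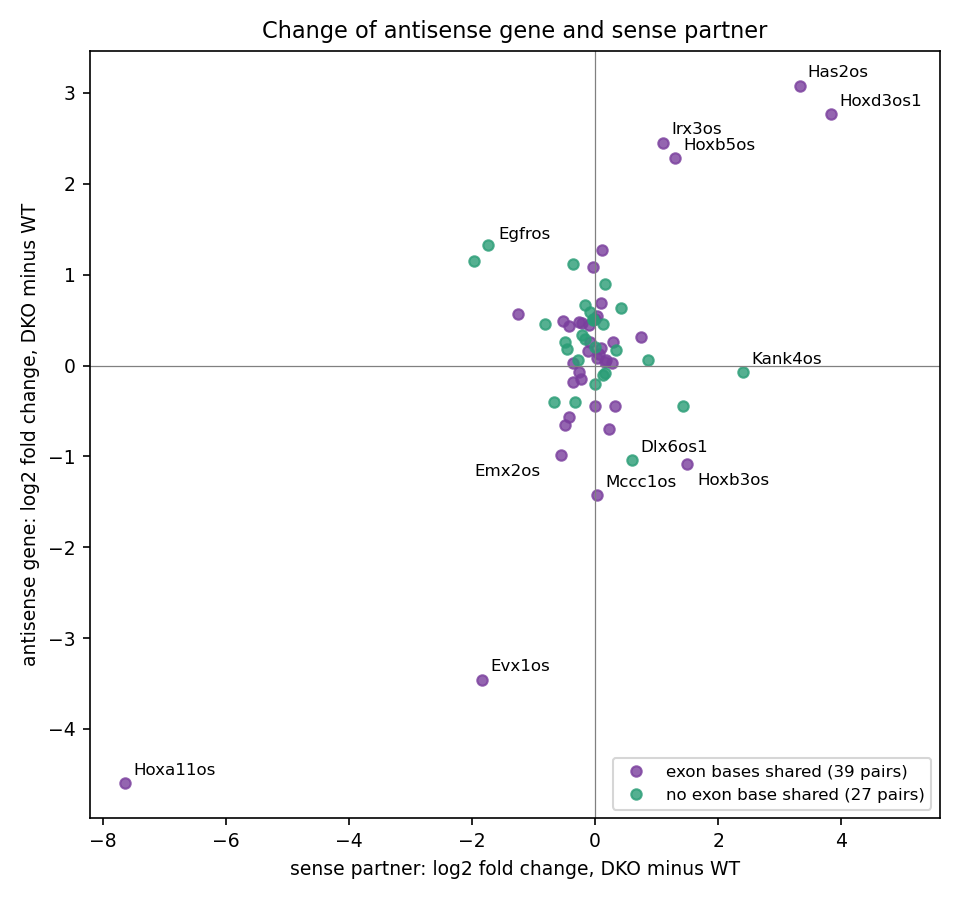
Log2 fold change DKO minus WT of the antisense gene (vertical) against that of the sense gene (horizontal) for 66 pairs, purple where exon bases are shared (39 pairs) and green where none are (27 pairs). Most pairs lie near the centre; Has2os, Hoxd3os1, Irx3os and Hoxb5os lie at the upper right, Hoxa11os and Evx1os at the lower left, and Egfros, Dlx6os1 and Hoxb3os in the quadrants of opposite sign.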

How the data were processed

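The authors deposited raw counts, whole numbers of reads per gene, for 55401 genes in 6 columns, and no column was left unmapped. Per the submitters' processing notes, the tools were HISAT2, StringTie, Cufflinks, fastp, FastQC and DESeq2, on GRCm38 (mm10). Which of them produced the counts, and in which version, is not given in the sources used here. Libraries were made with SMART-Seq v4 and Nextera XT, per the labels' protocols; that chemistry keeps no strand and has no molecular identifiers. The column numbers match none of the labels' replicate numbers, and nothing says which embryos the samples came from, so the p-values reflect sample-to-sample spread, which may in part be technical.

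Genotypes were compared in R 4.3.3 by the quasi-likelihood F test of edgeR 4.0.16, after filterByExpr and TMM scaling, with glmQLFit set to robust=TRUE and legacy=FALSE. P-values were adjusted by the Benjamini-Hochberg method across all 19126 genes that passed the filter, and genes under 0.05 were called. Log2 fold changes are DKO minus WT. Levels are CPM scaled by TMM, except at the limit of 0.5 CPM, which used library totals. Antisense to sense ratios used CPM plus 0.1. Positions, biotypes and exon overlaps came from GENCODE M21 (GRCm38), in which 99.5% of identifiers matched. The script was tested on simulated data. DESeq2 1.42.0, other scalings, filters, limits and omitted libraries were tried as alternatives.

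The members, the lists and the tests were chosen with earlier results of these data known. Genes were named with values where they were called, where their sense gene was called, where they were among the 12 highest members, where they lay next to the limit or where they belong to HOX, Dlx or other limb loci. Other genes, such as Irx3os, Has2os, Rbm3os and Hand2os1, were named after their values were seen.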

Additional observations from a re-analysis of the deposited data

How the results depend on the processing

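The calls rest on few libraries, and most members are near 1 CPM, where counting and library preparation limit what can be seen. Over all genes 863 were called; the count was 546 with legacy=TRUE (the default of this edgeR version), 412 with no filter on low counts, 1738 with DESeq2, 74 without DKO 40 and WT 32, and 247 to 918 with 1 library left out. Of the members 2 were called; the count was 0 with no filter on low counts (14 at an unadjusted p under 0.05), 0 without DKO 40 and WT 32, 0 among members sharing no exon base with their sense gene, 4 with DESeq2 and 0 to 3 with 1 library left out. Scaling by RLE or by library totals, legacy=TRUE, a limit of 1 CPM, a limit over all 6 libraries and, chosen after the data were seen, members over the limit in both genotypes or noncoding members alone each gave 2, Emx2os and Hoxb5os. Of the sense genes 5 were called; the count was 1 with legacy=TRUE, 1 with no filter, 9 with DESeq2, 0 without DKO 40 and WT 32, 3 without DKO 41 and WT 53, and 0 to 5 with 1 library left out. The log2 fold change of Sp3os turned to -0.084 without DKO 40, -0.062 without DKO 41, -0.037 without WT 53, -0.029 without DKO 40 and WT 32 and -0.12 without DKO 41 and WT 53, and ranged from -0.084 to 0.19 with 1 library left out. That of Slc7a6os turned to 0.017 without DKO 41 and 0.0016 without DKO 40 and WT 32, with a range from -0.30 to 0.017 with 1 library left out. No other sign turned, over 13 settings, among the 28 genes named for a call, a called sense gene, their level or a limb locus. The members just above the 0.5 CPM limit are not among those 28. With 1 library left out, Arhgap27os1 ranged from -0.25 to 0.37 and Dnm3os from -0.38 to 2.80, so their signs turned. Rsf1os2 ranged from 0.097 to 1.43. With 1 library left out, 20 of all 71 members changed sign in at least 1 omission. The causes were not tested. No paired analysis was possible because the columns carry no replicate numbers of the labels.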

Other observations

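Noncoding transcripts that the naming rule leaves out were taken from a list of 23, many at imprinted, HOX and X-inactivation loci and others, such as Malat1, Neat1, Snhg11, Sox2ot, Pantr1 and Pantr2, elsewhere, of which 22 were in the table and 17 passed the filter on low counts. Of these, 3 (17.6%) were called higher in DKO by edgeR, where 1.70% of all genes tested were, and none lower, where 2.81% were. At an unadjusted p under 0.05 there were 7 (41.2%), against 18.0% of all genes. All 3 are maternally expressed transcripts of the same imprinted locus, Dlk1-Dio3, and are not independent of each other. The list was also drawn up with earlier results of these data known, so its shares are given only as descriptions. Meg3 was at 5.39, 3.33 and 4.58 CPM in WT 32, WT 53 and WT 56 and at 19.1, 16.5 and 24.8 CPM in DKO 17, DKO 40 and DKO 41 (log2 fold change 2.16, SE 0.258, edgeR adjusted p = 0.00288). Rian was at 1.48, 1.17 and 1.08 CPM in WT and at 7.55, 8.58 and 8.01 CPM in DKO (log2 fold change 2.69, SE 0.288, edgeR adjusted p = 0.00172). Mirg was at 0.556, 0.395 and 0.561 CPM in WT and at 2.95, 3.23 and 1.51 CPM in DKO (log2 fold change 2.30, SE 0.486, edgeR adjusted p = 0.0321). In each of the 3 every DKO library was above every WT library.

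Other imprinted or clustered transcripts of the list did not pass the test. Peg13 was at 6.64, 3.93 and 6.30 CPM in WT and 17.6, 8.42 and 12.6 CPM in DKO (log2 fold change 1.17, edgeR adjusted p = 0.0807), and Airn, the antisense transcript of the Igf2r locus, at 4.28, 2.59 and 2.73 CPM in WT and 4.72, 5.69 and 6.98 CPM in DKO (0.84, edgeR adjusted p = 0.178). Both were higher in every DKO library, as was Hotairm1 of the HOXA cluster (0.65, edgeR adjusted p = 0.343). Ftx, of an X-inactivation locus, was lower in every DKO library. It was at 4.97, 4.18 and 4.48 CPM in WT and 2.92, 1.84 and 3.02 CPM in DKO (-0.80, edgeR adjusted p = 0.179). H19, the most abundant of the list, was at 1922 CPM on average in WT and 2152 in DKO (0.16, edgeR adjusted p = 0.471), and Kcnq1ot1 overlapped between genotypes (-0.18, edgeR adjusted p = 0.849). Sox2ot, Hotair, Halr1 and Pantr2 had no count in any of the 6 libraries.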
